A study of Mus musculus with 12 samples.

Results

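The genes described here are 9 markers of progenitor-like fibroblasts of the vessel adventitia and of the "universal" fibroblasts found across organs: *Ly6a*, *Ly6c1*, *Cd34*, *Pi16*, *Dpp4*, *Cd55*, *Thy1*, *Dpt* and *Gli1*. They were chosen by name, with earlier results of these data known. They are the listed surface and secreted markers of these cells plus the transcription factor *Gli1*. All 9 were found among the 54352 gene symbols of the count table. The counts come from bulk RNA-seq of primary adventitial fibroblasts grown out of the aorta of wild-type (WT) C57Bl/6 mice, which the sample labels give as 14 weeks old and the methods as male and 12 weeks old. Fibroblasts of the ascending aorta (with the aortic root) and of the descending aorta were expanded in DMEM with 5% FBS and passaged, and then received solute control or mouse TGFβ at 10 ng/mL for 48 h. There were 3 libraries in each of 4 groups, descending control, descending TGFβ, ascending control and ascending TGFβ, and all 12 carry the batch label 1. The labels do not say whether the replicates came from separate animals, so the p-values measure the spread between these cultures only.

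The adventitia is the outer, fibroblast-rich coat of an artery. Adventitial cells that carry Sca-1 (the product of *Ly6a*) and CD34, and those that express *Gli1*, have been described as progenitors that can give rise to smooth muscle-like cells and myofibroblasts. In atlases of mouse fibroblasts, cells with *Pi16* and *Dpt* occur in nearly every organ and are placed at the start of paths that lead to activated, matrix-producing fibroblasts, with *Dpp4* and *Cd55* marking the *Pi16* cells of fat and of vessel walls. TGFβ is the best-known signal that turns a fibroblast into a contractile myofibroblast. The comparisons below ask how these markers responded to TGFβ at each site and how they differed between the sites.

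The depth of the 12 libraries ranged from 16250126 to 23892943 reads assigned to genes. Of the members, 7 had more than 3 counts, the floor used here, in each of the 12 libraries, and *Dpp4* and *Gli1* did not. Descending control replicate 3 stood apart from the other 11 libraries, with counts on 13031 genes against 19337 to 20931, 11.02% of its counts on mitochondrial genes against 0.703 to 1.03%, and a floor of 0.207 CPM (counts scaled to a common library total, normalized with edgeR's TMM) against 0.117 to 0.163. Over 14637 genes its median absolute log2 difference from the other descending controls was 0.93, against 0.11 between replicates 1 and 2 themselves. Tests of members and counts over gene lists that rest on the descending control are therefore given with and without this library. All fold changes come from a two-sided test, the quasi-likelihood F-test of edgeR, with Benjamini-Hochberg adjustment over all genes tested, and a gene was called differentially expressed (DE) at an adjusted p under 0.05.

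The label of the cells was checked on 10 fibroblast lineage genes. In ascending libraries all 10 were above the floor, and in descending libraries 9 were, with *Tcf21* at 0 counts in all 6. Their summed level was 15552 to 16395 CPM in ascending and 12634 to 14271 CPM in descending control. With TGFβ it was 20556 to 20721 and 23376 to 25580 CPM in the same order. By gene, 7 of the 10 fell with TGFβ in ascending fibroblasts, among them *Pdgfra*, *Dcn* and *Lum*, and *Col1a1*, *Col1a2* and *Pdgfrb* rose (median log2 fold change −0.84). In descending fibroblasts 4 of 9 tested fell and 2 rose (−0.88), or 6 and 3 (−0.92) without the library described above. Several members are also made by other cells of the vessel wall, *Ly6a*, *Ly6c1* and *Cd34* by endothelial cells among them. Of 8 endothelial markers, *Cldn5* was at 0 in all 12 libraries, *Pecam1* and *Cdh5* had at most 6 counts in any library, and the sum of the list, 23.9 to 28.1 CPM in control and 8.40 to 15.1 CPM in TGFβ libraries, was carried in control by *Tek* (24.2 CPM in descending and 24.3 CPM in ascending control). Of 7 T cell markers, *Cd3e*, *Cd3d*, *Cd2* and *Cd8a* were at 0 in every library and the sum reached at most 3.17 CPM. Of 8 macrophage markers none was at 0 throughout, and their sum was 58.1 to 370 CPM in control and 31.3 to 44.2 CPM in TGFβ libraries of ascending fibroblasts, and 27.5 to 53.2 and 16.02 to 29.1 CPM in those of descending fibroblasts.

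The sums of the fibroblast, macrophage, T cell and mesothelial lists did not overlap between the sites in control or with TGFβ. The same held for the adipocyte, Schwann cell and smooth muscle lists. Those of the endothelial and pericyte lists overlapped in control and not with TGFβ. The 7 mesothelial markers summed to 85.3 to 101 CPM in ascending and 23.2 to 25.1 CPM in descending control, and to 48.6 to 57.9 and 26.4 to 29.0 CPM with TGFβ, with *Wt1* and *Krt8* at 3 counts or fewer throughout. The 5 adipocyte markers summed to 75.7 to 113 CPM in control and 25.0 to 45.2 CPM in TGFβ libraries of descending fibroblasts, and to 4.08 to 14.7 and 2.19 to 2.60 CPM in those of ascending fibroblasts. The 6 Schwann cell markers summed to 15.3 to 24.7 CPM in descending and 32.8 to 41.9 CPM in ascending control, and to 12.4 to 13.9 and 22.8 to 26.5 CPM with TGFβ, with *Sox10* at 0 in descending fibroblasts. The 8 smooth muscle markers reached 162 to 172 CPM in ascending control, 222 to 290 in descending control, 204 to 220 in ascending TGFβ and 362 to 386 in descending TGFβ libraries, and the 6 pericyte markers 190 to 212, 136 to 319, 238 to 258 and 474 to 537 CPM in the same order. The part of these lists in the results below was not tested, and in bulk RNA fewer cells of a type cannot be told apart from less RNA per cell.

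**Figure D1:**
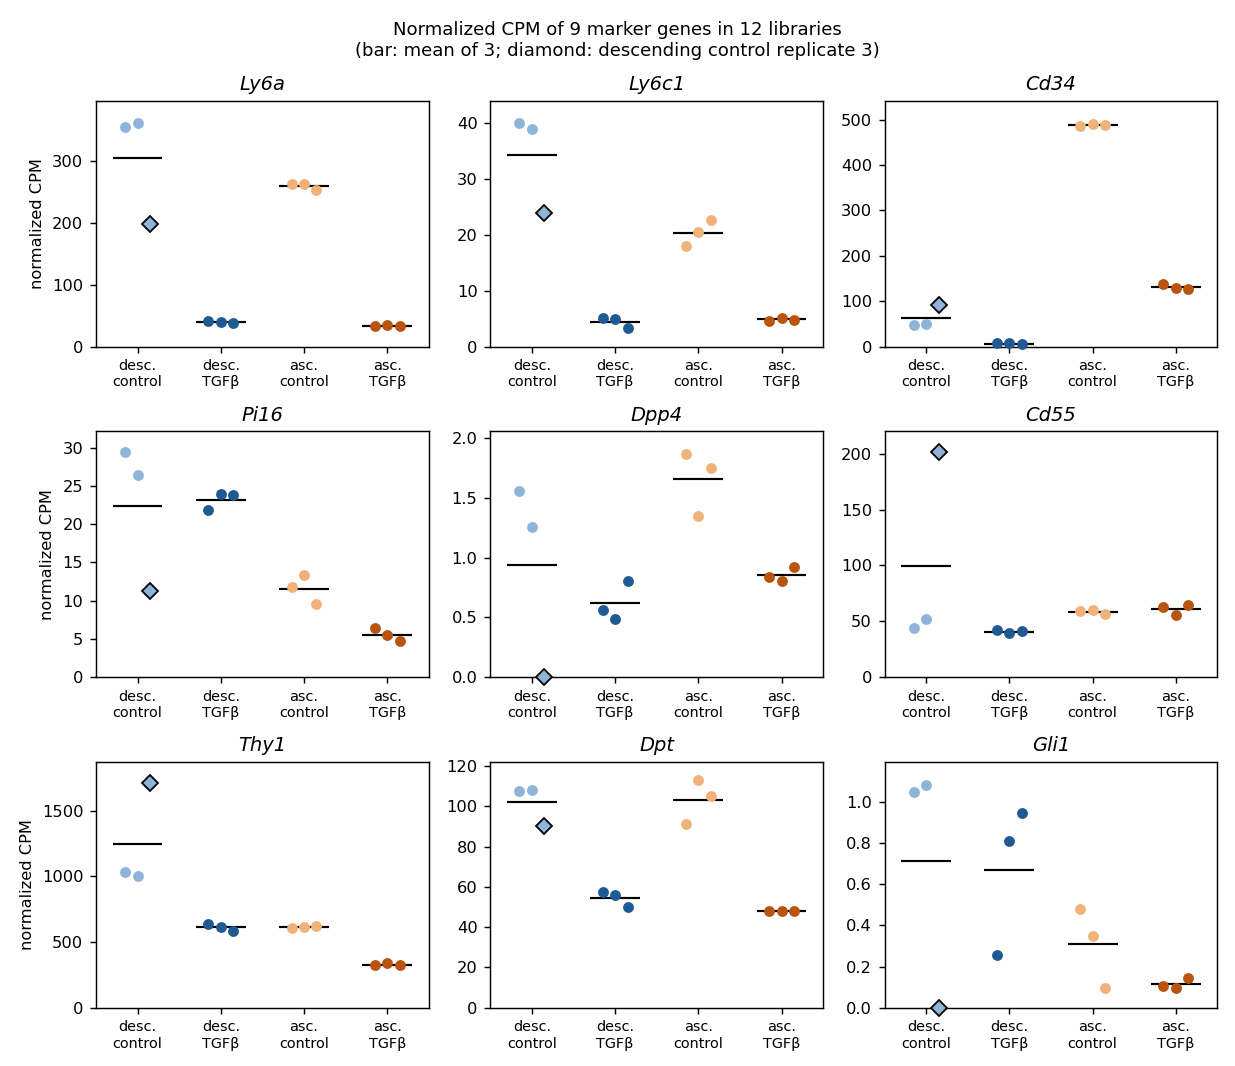
Normalized CPM (linear axis from 0) of each of the 9 markers in the 12 libraries, with 1 point per library, a bar at the mean of the 3 libraries of a group, and a diamond for descending control replicate 3. *Ly6a* and *Ly6c1* are low in all 6 TGFβ libraries, and *Cd34* is above 100 CPM in the ascending libraries only. The diamond is at 0 for *Dpp4* and *Gli1*. It lies below the other descending controls for *Ly6a*, *Ly6c1*, *Pi16* and *Dpt*, and above them for *Cd34*, *Cd55* and *Thy1*.

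Levels of different genes were compared per length, as RPKM, the normalized CPM per kilobase of exon. In the 3 descending control libraries *Thy1* was the highest member (335 to 571), followed by *Ly6a* (164 to 300) and *Dpt* (52.3 to 62.7). In the 3 ascending control libraries *Ly6a* was first (210 to 218) and *Thy1* next (203 to 207), followed by *Cd34* (66.7 to 67.4), which was the sixth in each descending control. With TGFβ *Thy1* was first in all 6 libraries. *Pi16* lay between 0.750 and 4.61 in the 12 libraries, and *Dpp4* and *Gli1* were the lowest members in each of them, at most 0.296 and 0.217. Among 27226 genes with at least 1 count and a known exon length, the per-length level of *Ly6a* lay at percentile 99.5 in descending control and 94.8 in descending TGFβ, that of *Cd34* at 97.7 in ascending control and 59.9 in descending TGFβ, and that of *Dpp4* between 40.5 and 48.0 in the 4 groups.

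**Figure D2:**
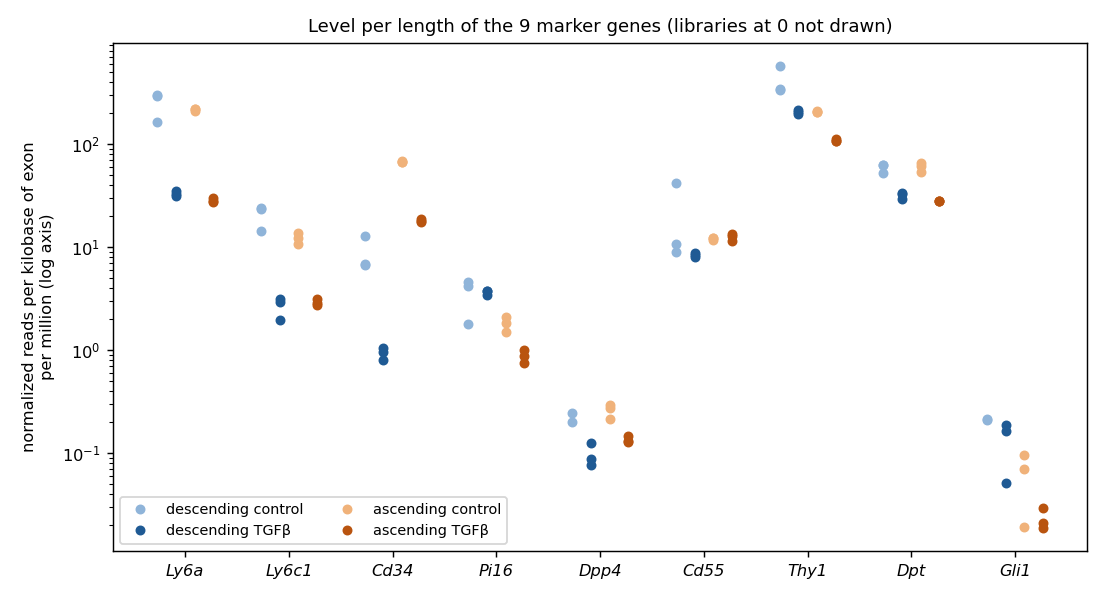
Normalized RPKM, the CPM per kilobase of exon (log axis), of the 9 markers, with 1 point per library, coloured by group, and libraries at 0 counts left out. The members span from under 0.1 for *Gli1* in ascending fibroblasts to 571 for *Thy1* in descending control replicate 3.

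The promoters of 3 members are shown to set *Cd34* and *Ly6c1*, which fell with TGFβ at both sites, beside *Cd55*, which was not called in ascending fibroblasts. They come from RefSeq (GRCm38.p6), 250 bases before to 50 after the transcript start, and 7 promoters matched 6 of the 9 members (not *Ly6a*, *Thy1* and *Gli1*). The letters searched, on both strands, were CAGAC (bound by SMAD, the factors that carry TGFβ signals), TGANTCA (AP-1), GACCACCCA (GLI), CCACACCC (KLF) and TATAAA (the core promoter box), and capitals mark a match. *Cd34* lies at chr1:194938571-194938870 on the plus strand, the first *Ly6c1* promoter at chr15:75048788-75049087 and *Cd55* at chr1:130462695-130462994, both on the minus strand.
Cd34: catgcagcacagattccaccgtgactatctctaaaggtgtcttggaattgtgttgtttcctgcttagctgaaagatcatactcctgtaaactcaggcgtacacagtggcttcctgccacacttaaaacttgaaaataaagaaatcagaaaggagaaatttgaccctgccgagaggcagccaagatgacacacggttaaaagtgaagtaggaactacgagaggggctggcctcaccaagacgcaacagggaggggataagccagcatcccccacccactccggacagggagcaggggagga
Ly6c1: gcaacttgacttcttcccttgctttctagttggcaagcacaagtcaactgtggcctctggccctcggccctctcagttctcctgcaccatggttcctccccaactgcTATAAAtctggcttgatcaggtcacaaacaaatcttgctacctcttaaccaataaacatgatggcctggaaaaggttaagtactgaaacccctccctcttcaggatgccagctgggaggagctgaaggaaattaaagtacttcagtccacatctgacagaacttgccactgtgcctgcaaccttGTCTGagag
Cd55: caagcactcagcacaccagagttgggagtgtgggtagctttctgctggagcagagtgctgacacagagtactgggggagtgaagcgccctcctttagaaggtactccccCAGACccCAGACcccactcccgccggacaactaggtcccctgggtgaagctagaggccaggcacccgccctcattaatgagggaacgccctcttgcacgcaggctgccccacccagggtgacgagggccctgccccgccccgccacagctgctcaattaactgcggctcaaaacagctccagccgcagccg
The *Cd34* promoter held none of the 5 motifs. The *Ly6c1* promoter held TATAAA, starting 143 bases before the transcript start, and CAGAC on the other strand, printed as GTCTG, and the *Cd55* promoter held CAGAC at 2 places. CAGAC occurred in 5 of the 7 member promoters and in 49.6% of 32851 promoters of this length, TATAAA in 3 and in 13.6%, and the AP-1, GLI and KLF letters in none, with 7.81%, 0.253% and 3.56% of all promoters. These matches describe the sequence only.

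*Ly6a* (chr15:74994877-74998031, minus strand, GRCm38) encodes Sca-1, a small surface protein of the Ly6 family held in the membrane by a GPI anchor, and is the marker most used to sort mouse mesenchymal and adventitial progenitors. Its level was 354, 361 and 198 CPM in descending control replicates 1 to 3 and 41.7, 39.7 and 37.4 CPM in descending TGFβ. In ascending fibroblasts it was 263, 262 and 253 CPM in control and 33.8, 35.7 and 32.6 CPM with TGFβ. Every TGFβ library lay below every control library. *Ly6a* fell 7.65-fold with TGFβ in ascending fibroblasts (95% confidence interval 7.18 to 8.15, adjusted p = 8.99e-18), which ranked it 7th by p among 13917 genes tested. In descending fibroblasts it fell 7.72-fold (4.94 to 12.1, adjusted p = 0.00325), and 9.02-fold (8.34 to 9.76) without replicate 3. Between the sites the control groups overlapped (log2 fold change −0.22 ± 0.24 (SE), adjusted p = 0.677), while without replicate 3 *Ly6a* was 1.37-fold lower in ascending control (adjusted p = 7.21e-07). With TGFβ it was lower in ascending fibroblasts by a log2 fold change of −0.22 ± 0.06 (adjusted p = 0.00705), a call lost without ascending TGFβ replicate 3, where the log2 fold change was −0.18 (adjusted p = 0.0507), and with the 12 libraries in one fit (adjusted p = 0.797).

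*Ly6c1* (chr15:75044018-75048830, minus strand) lies near *Ly6a* in the Ly6 gene cluster and encodes another GPI-anchored protein, known from endothelium, from immune cells and from adventitial and adipose fibroblasts. It had 40.0, 38.9 and 23.9 CPM in the descending control libraries and 5.20, 4.93 and 3.31 CPM after TGFβ, with 17.9, 20.5 and 22.7 CPM in the ascending control libraries and 4.59, 5.20 and 4.82 CPM after TGFβ. The TGFβ libraries of each site lay below its control libraries, and the TGFβ libraries of the sites overlapped. It fell 4.18-fold in ascending (3.55 to 4.93, adjusted p = 8.74e-11) and 7.68-fold in descending fibroblasts (4.64 to 12.7, adjusted p = 0.00431), or 8.84-fold (7.50 to 10.4) without replicate 3. In control every ascending library lay below every descending library, with a log2 fold change of −0.74 ± 0.23 (adjusted p = 0.234), and −0.94 ± 0.08 (adjusted p = 1.05e-06) without replicate 3. Of its 50-base exon sequences 32.8% also occur in another gene, 21.5% in *Ly6c2*, and of those of *Ly6a* 18.967% do, 15.035% in *Ly6c1*. The way reads that match several genes were counted is not stated, so the counts of these paralogs are uncertain. *Ly6c2* itself was listed at 0 in all 12 libraries. The ratio of *Ly6a* to *Ly6c1* counts was 11.1 to 14.7 in ascending control, above its range in descending control (8.28 to 9.29), and 6.76 to 7.35 in ascending TGFβ, below its range in descending TGFβ (8.01 to 11.3).

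*Cd34* (chr1:194938819-194961279, plus strand) encodes a heavily glycosylated surface sialomucin of blood progenitors, endothelium and many resting fibroblasts. It was the member that differed most between the sites. Descending control replicates 1 to 3 had 48.3, 49.4 and 92.7 CPM, and the descending TGFβ libraries had 7.70, 7.04 and 5.91 CPM. Ascending control libraries had 486, 492 and 488 CPM, and ascending TGFβ libraries 138, 129 and 126 CPM. No pair of groups overlapped, and the group means spanned 71.0-fold. In control *Cd34* was 7.72-fold higher in ascending fibroblasts (4.64 to 12.8, adjusted p = 0.00909), and 10.1-fold higher (9.45 to 10.8, adjusted p = 2.23e-14) without replicate 3. With TGFβ it was higher by a log2 fold change of 4.26 ± 0.07 (adjusted p = 4.67e-27), ranked 4th by p among 13678 genes tested. TGFβ lowered it 3.74-fold in ascending (3.56 to 3.94, adjusted p = 9.66e-17) and 9.26-fold in descending fibroblasts (5.34 to 16.1, adjusted p = 0.00431), or 7.10-fold (6.20 to 8.12) without replicate 3. The sums of the 8 endothelial markers overlapped between the control groups (23.9 to 26.8 CPM in descending and 24.4 to 28.1 CPM in ascending). On that list *Tek*, an angiopoietin receptor, fell with TGFβ in ascending (−2.56 ± 0.10 on the log2 scale) and descending fibroblasts (−1.51 ± 0.15), *Erg*, an endothelial transcription factor, rose from 0.08 to 3.91 CPM in ascending and from 0 to 3.11 CPM in descending fibroblasts, and with TGFβ *Tek* (−1.04 ± 0.15) and *Kdr*, a VEGF receptor (−1.01 ± 0.33), were lower in ascending than in descending fibroblasts. The part of these markers in the *Cd34* result was not tested. The call in control was lost in 4 of the 6 fits that left out a library: the adjusted p was 0.0553 without descending control replicate 2, and 0.0789, 0.0684 and 0.0781 without ascending control replicates 1 to 3.

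*Dpt* (chr1:164796644-164824266, plus strand) encodes dermatopontin, a small matrix protein that binds decorin and collagen and is a defining transcript of universal fibroblasts. It had 108, 108 and 90.2 CPM in descending control and 91.2, 113 and 105 CPM in ascending control, where the groups overlapped. With TGFβ it had 57.3, 56.0 and 49.9 CPM in descending and 48.0 CPM in each of the 3 ascending libraries, below every control library. It fell 2.15-fold in ascending (1.96 to 2.37, adjusted p = 2.35e-10) and 1.88-fold in descending fibroblasts (1.51 to 2.36, adjusted p = 0.0135), or 1.98-fold (1.82 to 2.16) without replicate 3. The call in descending fibroblasts was lost in each of the 5 fits that left out another library than replicate 3 of the control, with an adjusted p of 0.0605 to 0.112. In control the sites did not differ detectably (log2 fold change 0.02, 95% confidence interval −0.32 to 0.36, or −0.054 without replicate 3). With TGFβ ascending libraries were lower by −0.18 ± 0.06 on the log2 scale (adjusted p = 0.0135). That call was lost with DESeq2 (adjusted p = 0.0520), without descending TGFβ replicate 1 (adjusted p = 0.0800) and with the 12 libraries in one fit (adjusted p = 0.531).

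*Thy1* (chr9:44043384-44048579, plus strand) encodes CD90, a GPI-anchored protein that binds integrins and is used to sort fibroblasts and mesenchymal stromal cells. Its levels were 1029, 1002 and 1711 CPM in the descending control libraries and 638, 616 and 586 CPM after TGFβ, with 607, 613 and 621 CPM in the ascending control libraries and 321, 337 and 322 CPM after TGFβ. Descending TGFβ and ascending control libraries overlapped, while every other pair of groups was separate. It fell 1.89-fold with TGFβ in ascending fibroblasts (1.81 to 1.97, adjusted p = 1.01e-13). In descending fibroblasts the log2 fold change was −1.03 ± 0.24 with an adjusted p of 0.0541, and without replicate 3 it fell by 0.72 on the log2 scale (adjusted p = 9.67e-14). In control the difference between sites was −1.02 ± 0.24 (adjusted p = 0.110), and −0.71 ± 0.03 (adjusted p = 1.07e-09) without replicate 3. With TGFβ *Thy1* was lower in ascending fibroblasts by −0.91 ± 0.04 on the log2 scale (adjusted p = 1.63e-17).

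*Pi16* (chr17:29317680-29330593, plus strand) encodes peptidase inhibitor 16, a GPI-anchored protein of the CAP family that marks the fibroblasts around vessels and in fascia. Its counts were 755, 610 and 164 in descending control, or 29.4, 26.4 and 11.3 CPM, and its level was 21.9, 23.9 and 23.9 CPM in descending TGFβ. Ascending libraries had 11.8, 13.4 and 9.59 CPM in control and 6.37, 5.53 and 4.77 CPM with TGFβ. It was thus highest in the descending fibroblasts, apart from replicate 3 of the control, which lay within the ascending control range. *Pi16* fell 2.09-fold with TGFβ in ascending fibroblasts (1.69 to 2.60, adjusted p = 9.93e-06). In descending fibroblasts the log2 fold change was 0.04 ± 0.35 (adjusted p = 0.955), and without replicate 3 it was −0.26 ± 0.08 (adjusted p = 0.00881). With TGFβ it was lower in ascending fibroblasts by −2.06 ± 0.11 on the log2 scale (adjusted p = 1.195e-15), and in control by −0.94 ± 0.37 (adjusted p = 0.374), or −1.26 ± 0.11 (adjusted p = 1.13e-06) without replicate 3.

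*Cd55* (chr1:130439027-130462744, minus strand) encodes decay-accelerating factor, a GPI-anchored protein that shields cells from complement. It had 43.6, 52.4 and 202 CPM in the descending control libraries and 42.2, 39.2 and 41.0 CPM after TGFβ, with 59.0, 59.7 and 56.6 CPM in the ascending control libraries and 62.6, 55.3 and 64.3 CPM after TGFβ. Replicate 3 of the descending control was 4.20 times the mean of the other descending controls. *Cd55* was the only tested member not called with TGFβ in ascending fibroblasts (log2 fold change 0.05, 95% confidence interval −0.07 to 0.17, adjusted p = 0.487). In descending fibroblasts the log2 fold change was −1.29 ± 0.61 (adjusted p = 0.273), or −0.23 ± 0.07 (adjusted p = 0.0108) without replicate 3. Ascending TGFβ libraries were higher than descending TGFβ libraries by 0.58 ± 0.06 on the log2 scale (adjusted p = 3.78e-09), a call lost with the 12 libraries in one fit (adjusted p = 0.757). In control the difference between sites was −0.76 ± 0.61 (adjusted p = 0.589), and it turned to 0.30 ± 0.07 (adjusted p = 0.00621) without replicate 3. Of its 50-base exon sequences 7.998% also occur in the paralog *Cd55b*.

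*Dpp4* (chr2:62330073-62412231, minus strand) encodes CD26, a surface peptidase that trims chemokines and incretins. It had 40, 29 and 0 counts in the descending control libraries and 11, 9 and 17 after TGFβ, with 43, 27 and 36 in the ascending control libraries and 16, 17 and 19 after TGFβ. In ascending fibroblasts it fell 1.94-fold with TGFβ (1.27 to 2.96, adjusted p = 0.00943), and the call was lost with DESeq2 (adjusted p = 0.0509) and with the 12 libraries in one fit (adjusted p = 0.532). In descending fibroblasts the log2 fold change was −0.62 ± 1.18 (adjusted p = 0.788), and −1.17 ± 0.38 (adjusted p = 0.0106) without replicate 3. Between the sites in control the log2 fold change was 0.80 (95% confidence interval −1.97 to 3.57), or 0.25 ± 0.29 (adjusted p = 0.571) without replicate 3. With TGFβ every ascending library lay above every descending library in CPM, the highest descending library at 0.803 and the lowest ascending library at 0.804, and the difference was not called (0.45, −0.32 to 1.22, adjusted p = 0.378).

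*Gli1* (chr10:127329882-127341974, minus strand) encodes a zinc finger transcription factor that carries out Hedgehog signalling and is itself a target of it. It had 27, 25 and 0 counts in the descending control libraries and 5, 15 and 20 after TGFβ, with 11, 7 and 2 in the ascending control libraries and 2, 2 and 3 after TGFβ. Ascending TGFβ libraries were at the floor. The gene passed the filter on low counts in comparisons with the descending control and in the interaction, and, with all libraries of the groups compared, not in the comparisons within ascending fibroblasts or within TGFβ. With TGFβ in descending fibroblasts the log2 fold change was −0.12 ± 1.196 (adjusted p = 0.966), and −0.65 ± 0.43 (adjusted p = 0.206) without replicate 3. In control the difference between sites was −1.205 ± 1.28 (adjusted p = 0.675), and without replicate 3 *Gli1* was lower in ascending fibroblasts by −1.74 ± 0.50 (adjusted p = 0.0175). With TGFβ all 3 ascending libraries lay below all 3 descending libraries. With no filter on low counts that difference was −2.49 ± 0.66 on the log2 scale (edgeR, adjusted p = 0.00129), and it was called with DESeq2 as well (adjusted p = 0.0163) but not with the 12 libraries in one fit (adjusted p = 0.271). In the 4 fits without a library that tested *Gli1* the adjusted p was 0.000424 to 0.0147. There the gene passed the filter through the descending TGFβ libraries alone, where it was high, so these fits give no separate support. Parts of the exons of *Cd34*, *Pi16*, *Dpp4*, *Cd55* and *Gli1* overlap a gene on the opposite strand, over 1.24 to 5.31% of their exon length, and the strand setting of the counting is not stated.

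Counted together, 7 of the 8 members tested fell with TGFβ in ascending fibroblasts and none rose, where 55.8% of all 13917 genes tested were called, 27.6% lower and 28.2% higher. The median log2 fold change was −1.09 over the 8 members and 0.00 over all genes. In descending fibroblasts 4 of 9 fell (*Ly6a*, *Ly6c1*, *Cd34* and *Dpt*), where 8.07% of 13825 genes were called, 4.48% lower and 3.59% higher, with a median log2 fold change of −1.03 against 0.02. Without replicate 3, 8 of 9 fell, where 52.9% of 14311 genes were called, 26.3% lower and 26.6% higher, with a median of −0.99 against −0.01, and with limma-voom, which over the 12 libraries gave replicate 3 a sample weight of 0.0122 against 1.09 to 1.82 for the others, 8 members and 53.1% of genes were called as well. The TGFβ comparisons of the sites use separate libraries, while the comparison with TGFβ in descending fibroblasts and that between the sites in control share the descending control.

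**Figure D3:**
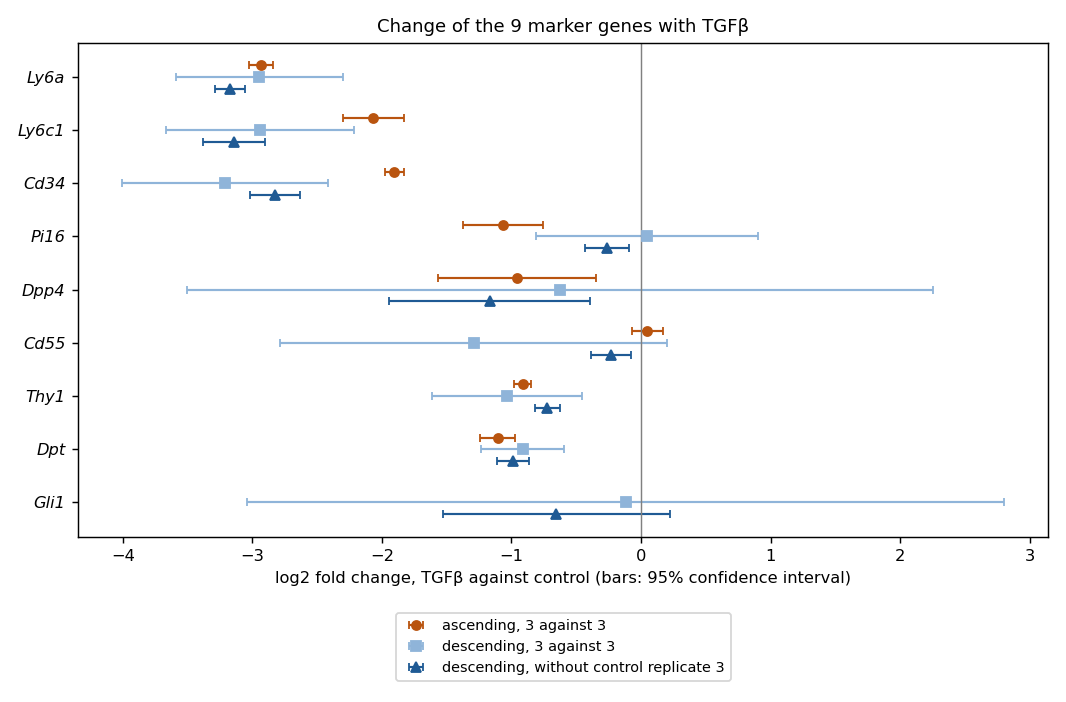
Log2 fold change of each marker with TGFβ against control (x axis), with bars for the 95% confidence interval, in ascending fibroblasts (circles), in descending fibroblasts (squares) and in descending fibroblasts without control replicate 3 (triangles). The intervals of *Ly6a*, *Ly6c1*, *Cd34*, *Thy1* and *Dpt* lie below 0 in all 3 fits, while that of *Cd55* in ascending fibroblasts spans 0.

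Between the sites, 1 of 9 members was higher in ascending control (*Cd34*) and none was lower, where 2.65% of 14090 genes tested were called, 1.19% higher and 1.47% lower. Without descending control replicate 3, *Cd34* and *Cd55* (whose log2 fold change with that library was −0.76) were higher and *Ly6a*, *Ly6c1*, *Pi16*, *Thy1* and *Gli1* lower, where 31.6% of 14644 genes were called, 16.4% higher and 15.2% lower. With TGFβ, *Cd34* and *Cd55* were higher in ascending fibroblasts and *Ly6a*, *Pi16*, *Thy1* and *Dpt* lower, among 8 members tested, where 36.3% of 13678 genes were called, 18.1% higher and 18.2% lower. *Ly6c1* did not differ detectably with TGFβ (log2 fold change 0.13, 95% confidence interval −0.22 to 0.48).

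**Figure D4:**
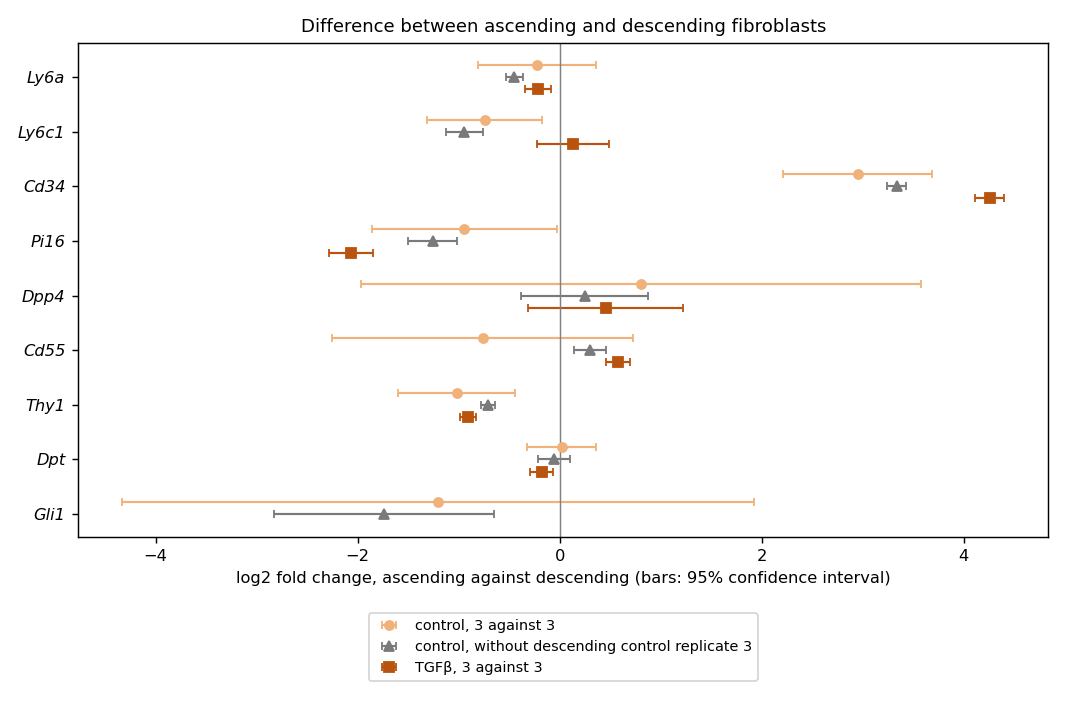
Log2 fold change of each marker in ascending against descending fibroblasts (x axis), with bars for the 95% confidence interval, in control (circles), in control without descending control replicate 3 (triangles) and with TGFβ (squares). *Cd34* lies between 2.95 and 4.26 in the 3 fits, and *Pi16* and *Thy1* lie below 0 in each.

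The interaction of site and treatment asks whether the response to TGFβ differed between the sites. Over the 12 libraries, 0 of 9 members were called by edgeR, where 0.806% of 14637 genes were (0.321% higher and 0.485% lower), and 3 members had an unadjusted p under 0.05: *Cd34* (1.30 ± 0.31 on the log2 scale, adjusted p = 0.106), *Ly6c1* (0.87 ± 0.32, adjusted p = 0.359) and *Pi16* (−1.11 ± 0.42, adjusted p = 0.396). A positive value means a more positive change in ascending fibroblasts. DESeq2 called 1 member, *Cd34* (adjusted p = 0.0133), and 2.93% of 14242 genes with an adjusted p, and limma-voom called 5 members and 13.5% of genes. Without replicate 3, 5 of 9 members were called, where 13.5% of 15013 genes were (6.07% higher and 7.4% lower). *Ly6a* (0.24 ± 0.07), *Ly6c1* (1.08 ± 0.18, adjusted p = 0.000143) and *Cd34* (0.93 ± 0.09, adjusted p = 7.15e-08) had a smaller fall in ascending fibroblasts, and *Pi16* (−0.80 ± 0.16, adjusted p = 0.00100) and *Thy1* (−0.19 ± 0.05) a larger one. Over the 12 libraries the interaction of *Thy1* had the opposite sign (0.11 ± 0.24, adjusted p = 0.829), and that of *Ly6a* was 0.01 ± 0.26 (adjusted p = 0.985).

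The order of the group means shows how the members differed among themselves. *Ly6a* and *Thy1* had the order descending control, ascending control, descending TGFβ, ascending TGFβ, *Cd34* ran from ascending control through ascending TGFβ and descending control to descending TGFβ, and *Pi16* from descending TGFβ to ascending TGFβ with the controls between. For *Thy1* the middle groups had means of 613.8 and 613.7 CPM and cannot be told apart, and for *Pi16* the descending groups overlapped. Without replicate 3 the order of *Pi16* turned, with 27.9 ± 2.06 CPM (SD, n = 2) in descending control above 23.2 ± 1.15 CPM (SD, n = 3) in descending TGFβ. With replicate 3 included, the highest mean was 8.95 times the lowest for *Ly6a*, 7.65 for *Ly6c1*, 4.18 for *Pi16*, 3.82 for *Thy1* and 2.15 for *Dpt*.

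Over the 12 libraries, log2 CPM (prior count 2) of *Ly6a* had a Pearson r of 0.985 with *Dpt* and 0.977 with *Ly6c1*, and *Cd34* one of −0.61 with *Pi16*. The libraries share their groups, so these values describe the pattern and carry no p. Among 14628 genes outside the members, those most like each member over the 12 libraries were *Atoh8* (r = 0.996), *Mcc* and *Mrgprf* for *Ly6a*, *Fmo2* (0.983), *Cyp26b1* and *Cd47* for *Ly6c1*, *Clca3a1* (0.990) and *Cyld* for *Cd34*, *Gpr165* (0.989), *Trerf1* and *Mrgprf* for *Dpt*, and *Svep1* (0.976), *Ccl7* and *Tmem119* for *Pi16*. For *Thy1* they were *Prrx1* (0.989), *Nfix* and *Naalad2*, for *Cd55* *Hsp90aa1* (0.987), *Prpf6* and *Ppp2r5c*, for *Dpp4* *Ch25h* (0.995), *Tsen34* and *Fbxl21*, and for *Gli1* *1700018A04Rik* (0.937), *A530016L24Rik* and *Adcy6*. Without descending control replicate 3 *Ch25h* stayed first for *Dpp4* (0.985), and the other members apart from *Cd34* had another gene first.

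The lists that follow are set beside all genes tested. With TGFβ 27.6% of these were lower and 28.2% higher in ascending fibroblasts (median log2 fold change 0.00), and 4.48% lower and 3.59% higher in descending fibroblasts (0.02), or 26.3% and 26.6% (−0.01) without replicate 3. In control 1.19% were higher and 1.47% lower in ascending fibroblasts (0.04), or 16.4% and 15.2% (−0.0011) without replicate 3.

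Of 22 other genes of the *Pi16* and *Dpt* fibroblast states, 21 were tested in ascending fibroblasts, 12 fell with TGFβ and 4 rose. Those with the smallest adjusted p were *Ackr3*, an atypical receptor that clears CXCL12 (−2.34 ± 0.06 on the log2 scale), and *Sema3c*, a secreted semaphorin (−1.80 ± 0.06), among the lower, and *Uchl1*, a ubiquitin hydrolase (0.52 ± 0.04), and *Fn1*, fibronectin (0.30 ± 0.03), among the higher. In descending fibroblasts 6 of 20 fell, among them *Clec3b*, which encodes tetranectin (−4.39 ± 0.35), and *Ackr3* (−1.09 ± 0.13), and *Adgrd1* rose (0.87 ± 0.17). Without replicate 3, 9 fell and 7 rose. *Scara5*, a scavenger receptor for ferritin on the same list, was picked after its values were seen: it had 23.4 ± 3.97 CPM in ascending control and 0.20 ± 0.06 with TGFβ, and 18.4 ± 9.90 and 0.09 ± 0.11 CPM in descending fibroblasts. The median log2 fold change of the list was −0.43 in ascending and −0.64 in descending fibroblasts, the latter −0.12 without replicate 3.

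In control, 2 of 21 of these genes were higher in ascending fibroblasts, *Hsd11b1*, which regenerates active glucocorticoid (4.18 ± 0.42), and *Clec3b* (1.07 ± 0.17), and none was lower. Without replicate 3, 8 were higher and 7 lower. The median was 0.08, or −0.026 without replicate 3.

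Of 12 adipose-type stromal genes, 8 of 11 tested fell with TGFβ in ascending fibroblasts (27.6% of all genes). Smallest in adjusted p among these were *Fmo2*, a flavin monooxygenase (−4.28 ± 0.18), and *Icam1*, an adhesion molecule of committed preadipocytes (−0.71 ± 0.05). *F3*, tissue factor, rose (1.97 ± 0.11). In descending fibroblasts 3 fell, among them *Fmo2* (−6.32 ± 0.20) and *Lpl*, lipoprotein lipase (−2.04 ± 0.16), and *F3* rose (1.67 ± 0.16). In control, 5 of 11 were lower in ascending fibroblasts, among them *F3* (−3.08 ± 0.18) and *Dlk1*, a Notch-related preadipocyte protein (−2.15 ± 0.17). Without replicate 3, 9 fell and 1 rose with TGFβ in descending fibroblasts, and 8 were lower and 1 higher in ascending control. The median log2 fold change of the list was −0.84 in ascending and −0.58 (−1.15 without replicate 3) in descending fibroblasts, and −1.62 (−1.66) between the sites in control. The adipocyte markers given above also had their lower sums in ascending fibroblasts.

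Of 14 genes of activated fibroblasts and myofibroblasts, 9 of 13 tested rose and 2 fell with TGFβ in ascending fibroblasts (28.2% and 27.6% of all genes). *Acta2*, smooth muscle actin, rose by 1.72 ± 0.03 on the log2 scale and *Postn*, periostin, by 2.12 ± 0.04, while the matrix genes *Comp* (−0.81 ± 0.11) and *Tnc* (−0.28 ± 0.04) fell. In descending fibroblasts 7 of 14 rose, among them *Acta2* (1.76 ± 0.09) and *Cthrc1*, a secreted protein of scar fibroblasts (3.95 ± 0.27), and *Comp* fell (−1.33 ± 0.21). In control, 5 of 14 were lower in ascending fibroblasts, among them *Comp* (−3.51 ± 0.22) and *Tnc* (−1.85 ± 0.19). Without replicate 3, 10 rose and 4 fell with TGFβ in descending fibroblasts, and 12 were lower and 1 higher in ascending control. Median log2 fold changes were 1.505 in ascending, 1.29 (1.14 without replicate 3) in descending fibroblasts and −1.62 (−1.46) between the sites in control.

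Hedgehog ligands bind Patched receptors, with the help of the co-receptors *Cdon*, *Boc* and *Gas1*, and release Smoothened, which acts through GLI factors. Of 17 genes of this pathway 12 were tested. In ascending fibroblasts 7 fell with TGFβ (27.6% of all genes), among them *Evc*, a cilium protein that works with Smoothened (−0.80 ± 0.05), and *Disp1*, which releases the ligands (−0.49 ± 0.04), and *Cdon* (0.98 ± 0.05) and *Gli2*, an activator (0.85 ± 0.34), rose. In descending fibroblasts *Gas1* (−2.88 ± 0.27) and *Evc* (−0.84 ± 0.14) fell and *Cdon* (1.26 ± 0.14) rose. In control, *Boc* (1.87 ± 0.16) and *Cdon* (1.28 ± 0.14) were higher in ascending fibroblasts. Leaving out replicate 3 gave 3 higher and 6 lower with TGFβ in descending fibroblasts, and 4 higher and 3 lower between the control groups. The medians were −0.23 in ascending, −0.071 (−0.15 without replicate 3) in descending fibroblasts and 0.064 (0.093) between the sites in control. *Shh* had no count in any library, *Ihh* and *Dhh* averaged at most 0.29 CPM, and *Ptch1*, a receptor that is also a target of the pathway, averaged 11.2 to 15.1 CPM in the 4 groups.

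Of 26 other Ly6 family genes 6 were tested in ascending fibroblasts. *Plaur*, the urokinase receptor, rose (1.96 ± 0.07), and the other 5 fell (27.6% of all genes). Among them *Lynx1* (−0.61 ± 0.04) and *Lypd1* (−2.59 ± 0.28), modulators of nicotinic receptors, had the smallest adjusted p. In descending fibroblasts *Plaur* rose (2.61 ± 0.15) and *Ly6e* fell (−0.86 ± 0.16), while 1 rose and 4 fell without replicate 3. In control none of 7 was called between the sites by edgeR, and without replicate 3, 3 were higher and 1 lower. The list's medians were −0.46 in ascending, −0.46 (−0.57 without replicate 3) in descending fibroblasts and 0.12 (0.069) between the sites in control.

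Of 24 paralogs and partners of the other members, 16 were tested in ascending fibroblasts, with 6 higher and 6 lower (28.2% and 27.6% of all genes). *Itgb5*, an integrin chain (1.22 ± 0.03), and *Glipr1*, a relative of *Pi16* (1.18 ± 0.05), rose, and *Adgre5*, the receptor of CD55 (−0.76 ± 0.05), was among those that fell. In descending fibroblasts 1 fell and 3 rose, among them *Crispld2* (1.87 ± 0.29) and *Itgb5* (1.82 ± 0.29). In control 1 of 16 was higher in ascending fibroblasts and none was lower. Leaving out replicate 3 gave 6 higher and 3 lower both with TGFβ in descending fibroblasts and between the control groups. The list had medians of −0.014 in ascending, 0.028 (0.0058 without replicate 3) in descending fibroblasts and 0.19 (0.10) between the sites in control. Of 14 mesenchymal surface markers, 7 of 13 tested rose and 5 fell in ascending fibroblasts (28.2% and 27.6% of all genes), with *Cd44* (1.19 ± 0.04) and *Itgb1* (0.63 ± 0.02) among the higher and *Pdgfra*, a growth factor receptor of fibroblasts (−1.74 ± 0.05), and *Vcam1* (−0.49 ± 0.04) among the lower. In descending fibroblasts *Mcam* (1.78 ± 0.30) rose, and 3 fell, among them *Pdgfra* (−2.14 ± 0.11) and *Cd9* (−0.71 ± 0.13). In control *Ngfr* was higher in ascending fibroblasts (6.77 ± 0.64), and *Pdgfra* (−1.01 ± 0.10) and *Cd44* (−1.14 ± 0.19) were lower. Leaving out replicate 3 gave 7 higher and 4 lower surface markers with TGFβ in descending fibroblasts, and 4 higher and 6 lower between the control groups. Their medians were 0.28, 0.29 (0.39) and −0.14 (−0.13) in the same order.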

How the data were processed

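RNA of 12 cultures was sequenced as paired-end reads. The authors mapped them to mm10 and deposited the raw counts of each gene symbol, not normalized, and the submitters' processing notes name FastQC, STAR, featureCounts and DESeq2, with versions not given in the sources used here. The strand setting and the counting of reads that match several genes are not given either. Whole-number counts in the deposited table summed to 16250126 to 23892943 per library. The labels give 1 passage, as do the study's methods, while its results name 3. Of the 54352 symbols, 53753 (98.9%) matched GENCODE vM21 (GRCm38), which gave positions and exon lengths.

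Counts were tested in R 4.3.3 with edgeR 4.0.16 (glmQLFit and glmQLFTest, TMM, filterByExpr defaults, minimum count 10, minimum total 15). Only the 6 libraries of the groups compared entered a fit, and all 12 entered the interaction. SEs were taken from the fold change and its F statistic, and intervals are at 95%. Floors of 3 counts cover counting error only, since PCR copies of a molecule cannot be recognized without molecular identifiers. The alternatives were DESeq2 1.42.0 (Wald test, or its size factors in edgeR), limma 3.58.1 (voom with sample quality weights), no filter, at least 10 counts in every library, leaving out 1 library at a time, a single fit of the 12 libraries, and the replicate number as a block. The main edgeR fit, the DESeq2 test and limma-voom were first run on simulated counts for each comparison, and the other alternatives were not. The simulated libraries all had the same spread, unlike descending control replicate 3. Figures were drawn with matplotlib 3.10.9. The genes named by rule are the 9 members and the 3 genes with the highest r to each over the 12 libraries. From each list other than those of cell types, the rule adds at most 2 genes per direction with the smallest adjusted p. Genes of the cell type lists, *Ly6c2*, *Cd55b*, *Scara5*, *Shh*, *Ihh*, *Dhh* and *Ptch1* are named outside this rule. The members and the gene lists were chosen with earlier results of these data known. Values of 1 gene that the naming rule picks are not reported here, though counts over lists include it. The single-cell data of the study were not analysed here.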

Additional observations from a re-analysis of the deposited data

How the results depend on the processing

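Of the log2 fold changes of members under the alternatives, 521 kept their direction and their side of the threshold, 30 passed it, 20 no longer did and 24 changed sign. Under the alternative the last had values of at most 0.30 in size, though the main value could be larger. That of *Cd55* between the sites in control was −0.76, against 0.30, which was called, without descending control replicate 3. In ascending fibroblasts the TGFβ comparison gave 7767 genes and 7 members, 7146 to 7427 and 7 with each library left out, and 2338 genes with the 12 libraries in one fit. In descending fibroblasts it gave 1115 genes and 4 members, 2266 genes with DESeq2, 7335 and 8 with limma-voom, 3570 genes in the 12-library fit, 213 to 7576 and 3 to 8 with a library left out (the highest of each without descending control replicate 3). Between the sites in control there were 374 genes and 1 member, 1034 and 2 with DESeq2, 4392 and 7 with limma-voom, 1545 and 2 in the 12-library fit, and 33 to 4631 and 0 to 7 with a library left out (the highest again without that library). With TGFβ the sites gave 4963 genes and 6 members, 1106 and 3 in the 12-library fit, and 7 members with no filter. With a library left out they gave 4340 to 4656 genes and 6 to 7 members. The seventh was *Gli1*, which with a library left out passed the filter through the descending TGFβ libraries alone. The interaction gave 118 genes and 0 members, 418 and 1 with DESeq2, 1979 and 5 with limma-voom, 56 genes with no filter, and 25 to 2022 and 0 to 5 with a library left out.

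The values that changed sign were, with limma-voom, *Pi16* with TGFβ in descending fibroblasts (−0.25), *Cd55* (0.27) and *Dpt* (−0.069) between the sites in control, and *Dpp4* (0.14) and *Thy1* (−0.18) in the interaction. The interaction of *Ly6a* was −0.00105 with DESeq2's size factors and −0.00406 with DESeq2. With a library left out, *Gli1* (−0.65 to 0.30) and *Pi16* (−0.26 to 0.29) with TGFβ in descending fibroblasts, *Cd55* (−1.12 to 0.30) and *Dpt* (−0.054 to 0.10) between the sites in control, *Ly6c1* (−0.056 to 0.25) between the sites with TGFβ, and *Ly6a* (−0.13 to 0.24), *Dpp4* (−0.84 to 0.22) and *Thy1* (−0.19 to 0.25) in the interaction changed sign. The cause was not tested.

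Deviations from the group means of libraries with the same replicate number had a correlation of −0.03 to 0.09 in 18 pairs, none above 0.1. Libraries with different numbers had −0.09 to 0.07 in 36 pairs. With 3 libraries per group these values cannot decide whether the numbers pair the samples, which the labels do not say. With the replicate number as a block, descending fibroblasts gave 95 genes and 2 members with TGFβ (without *Cd34*, adjusted p = 0.0612, and *Dpt*, 0.0992), the control sites 0 genes and 0 members, where 1805 genes had an unadjusted p under 0.05 without it, and the interaction 50 genes. The block turned *Gli1* with TGFβ in descending fibroblasts to 0.23 and *Ly6a* in the interaction to −0.018. Descending control replicate 3 had 0 counts of *Dpp4* and *Gli1*, as of 1186 genes with at least 20 counts in both other descending controls, and the cause was not tested. Levels below the floor of 3 counts (0.117 to 0.207 CPM) could not be measured at this depth.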
